A study of Mus musculus with 12 samples.

Results

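The secreted Wnt antagonists are 10 genes of the dickkopf, secreted frizzled-related and related families, chosen by symbol from the 40800 genes of the count table, with no count filter. They are Dkk1, Dkk2, Dkk3, Dkk4, Sostdc1, Sfrp1, Sfrp2, Sfrp5, Frzb and Wif1, and each matched 1 Ensembl gene. Their RNA was measured by bulk RNA sequencing in 6 libraries of ventricles labelled Wnt gain of function and 6 of control ventricles, all from mouse embryonic hearts at day 12.5. The labels name neither the engineered allele nor a Cre driver, and they give neither the controls' genotype nor any pooling of embryos. Nothing in them states that each library is its own animal, so the p-values below cover spread among libraries and no more.

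Wnt proteins signal through a pair of cell-surface receptors, a frizzled protein and the coreceptor Lrp5 or Lrp6, and the canonical branch of the pathway stabilises beta-catenin, which acts in the nucleus with Tcf and Lef factors. Secreted antagonists act outside the cell. Dkk1, Dkk2 and Dkk4 bind Lrp5 and Lrp6, and so does Sostdc1, which can also bind bone morphogenetic proteins. Sfrp1, Sfrp2, Sfrp5 and Frzb carry a frizzled-like domain that binds Wnt proteins, Wif1 binds Wnt proteins through a domain of its own, and Dkk3 is a divergent dickkopf that is not known as a classical Lrp6 antagonist. In the developing heart, canonical Wnt signalling has stage-dependent roles in progenitors, valves and conduction tissue. Several antagonist genes are themselves transcribed in response to beta-catenin in other tissues, Dkk1 and Dkk4 among them.

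Wnt gain-of-function ventricles held more RNA of 3 Lrp-binding antagonists. Dkk2 rose, with log2 fold change 3.29, and so did Dkk4 and Sostdc1, which were close to absent in control ventricles. Sfrp1, a frizzled-related gene, fell by 0.41 on the log2 scale. All these calls but that of Dkk4 depend on which libraries or tools are used. Of the 8 members that passed the low-count filter, 1 was called higher and 1 lower by edgeR's quasi-likelihood test at an adjusted p under 0.05. Over all 14774 genes tested, 0.501% were called, 0.433% higher and 0.0677% lower. The median log2 fold change of these 8 members was -0.23, against 0.00 over all tested genes, with 3 of the 8 members above 0. Without adjustment, 5 of the 8 members and 6.3% of all tested genes had p under 0.05. Dkk4 and Sostdc1 did not pass the filter and were tested in a fit of all 27743 genes with at least 1 count, of which 0.35% were called higher and 0.0433% lower. The filter asks for a minimum in 6 libraries. Dkk1 met that minimum in 6 Wnt gain-of-function and 3 control libraries, and Sfrp5 in 4 Wnt gain-of-function and 6 control libraries.

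Some facts of the libraries touch every result. Total counts were 12127026 to 17184662 in Wnt gain-of-function and 10130088 to 17526325 in control libraries. The library labelled Wnt gain-of-function 5 stood apart from its group. Axin2, a feedback inhibitor widely used as a readout of beta-catenin activity, was at 3.77 CPM (counts scaled to a common library size) in it and at 14.9 to 26 CPM in the other 5 libraries of the group, against 1.39 to 4.13 CPM in control libraries. Notum, which encodes a secreted enzyme that inactivates Wnt proteins, was at 1.18 CPM in this library and 12.9 to 22.4 CPM in the other 5, against 0.115 to 0.874 CPM in controls. In this library Axin2 thus lay inside the control range, and Notum above it but far below the other 5. Rnf43, a further beta-catenin target, was at 1.11 CPM in it, against 1.53 to 3.58 CPM in the other 5 and 0.402 to 0.694 CPM in controls. Every Wnt gain-of-function mean of 6 libraries includes this library. Whether its label or genotype differs from that of the other 5 was not tested. Each library was left out in turn, but fits without this one are quoted throughout because its values stood apart. Such a choice can narrow the spread within the group, so the p-values of these fits can be too small. The same library had the highest summed level of 6 erythroid markers, 73380 CPM, against 10890 to 32570 CPM in the other Wnt gain-of-function libraries and 8744 to 65130 CPM in controls. Libraries also stood close together in 3 pairs, Wnt gain-of-function 1 with 2 and 3 with 4, and control 2 with 3. Their mean chi-square per gene was 3.07 to 3.32, where the next pair had 12.8 and sampling noise alone gives about 1. Whether the paired libraries are separate samples is not given in the labels, and results with each pair summed into 1 sample are given below.

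**Figure D1:**
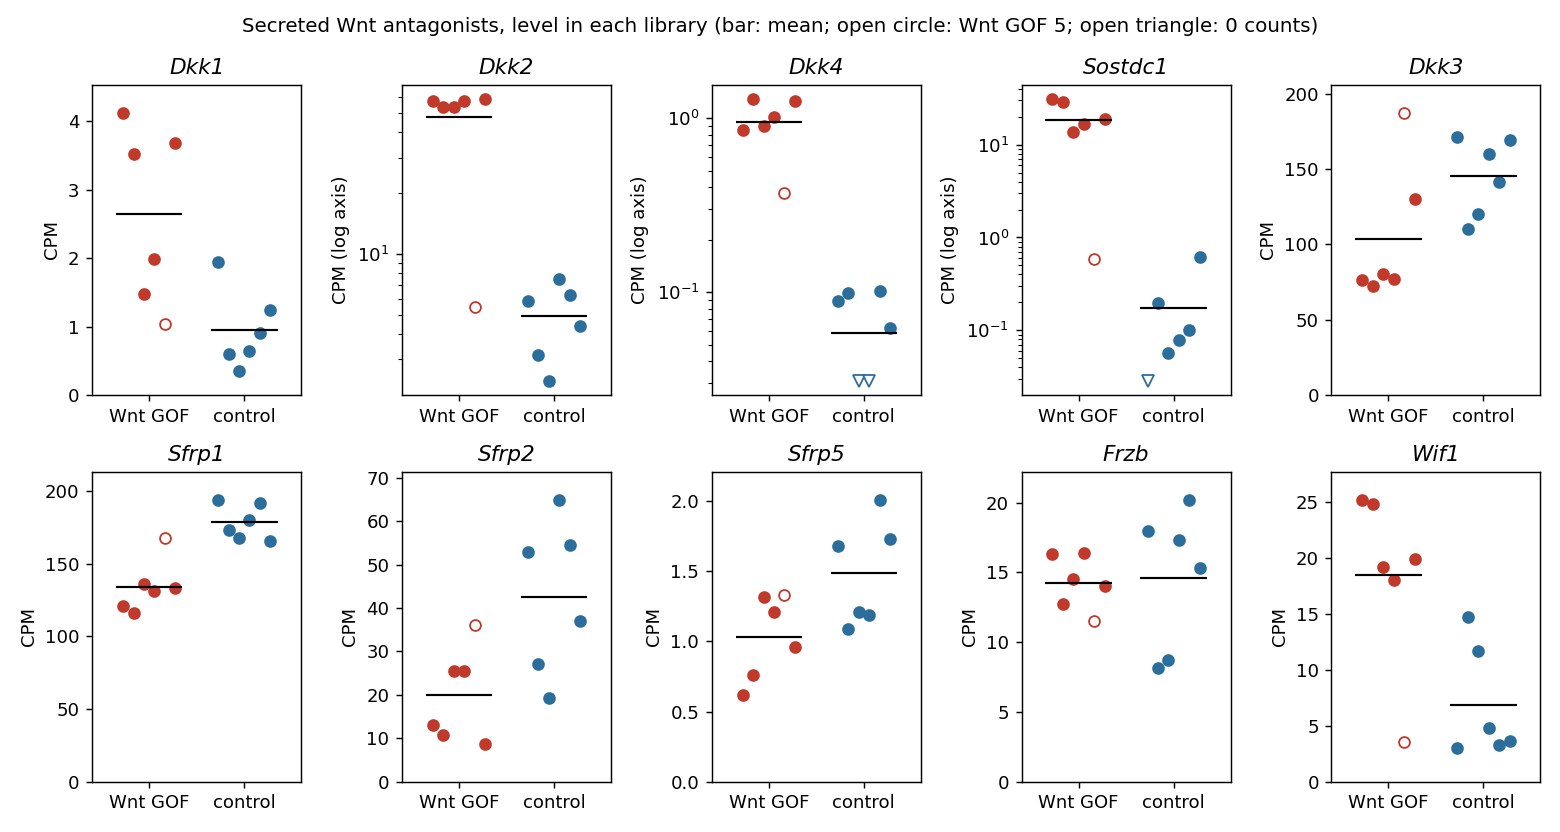
Level of each antagonist in CPM in each library, with Wnt gain of function (Wnt GOF, red) left of control (blue) and the group mean as a bar. The library labelled Wnt gain-of-function 5 is drawn open, and lies near the control points for Dkk2, Sostdc1 and Wif1. The axes of Dkk2, Dkk4 and Sostdc1 are logarithmic, the others start at 0, and triangles mark libraries with 0 counts.

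Dkk2 (ENSMUSG00000028031), a ligand of Lrp5 and Lrp6 that can inhibit or weakly activate the pathway depending on context, was at 5.48, 55.5 and 58.6 CPM (lowest, median and highest library) in Wnt gain-of-function ventricles and at 2.35, 5.12 and 7.54 CPM in control ventricles. In counts, 5 of the Wnt gain-of-function libraries had 649 to 917 reads, the library labelled Wnt gain-of-function 5 had 74, and the controls had 32 to 95. The groups overlapped through this 1 library: the other 5 lay between 53.4 and 58.6 CPM, a narrow band at least 7.07 times the highest control. The means were 47.6 ± 20.8 CPM in Wnt gain-of-function and 4.92 ± 1.97 CPM in control libraries (SD, n = 6 each). The edgeR log2 fold change was 3.29 with SE 0.51 and a Benjamini-Hochberg adjusted p of 0.0176. Without the library labelled Wnt gain-of-function 5 it was 3.52 ± 0.219 (edgeR adjusted p = 4.33e-07), a fit that carries the limit given above. In that smaller fit 1% of 14882 genes were called higher and 0.188% lower. The call was lost by a small margin without Wnt gain-of-function 1, 2 or 4 or control 2 (edgeR adjusted p = 0.0501 to 0.0539), and more widely with the closest pairs summed (edgeR adjusted p = 0.402) and in limma-voom (adjusted p = 0.288). In these fits the log2 fold change was still 3.08 to 3.25. With the pairs summed, 0% of 15112 genes were called higher and 0.00662% lower.

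Dkk1 (ENSMUSG00000024868), the founding dickkopf antagonist and a known beta-catenin target, was scarce. It was at 1.04, 2.75 and 4.12 CPM in the Wnt gain-of-function libraries and at 0.345, 0.771 and 1.95 CPM in control libraries, and 4 of 6 Wnt gain-of-function libraries lay above the highest control. The log2 fold change was 1.5 ± 0.41, which missed the threshold in edgeR (adjusted p = 0.205) and passed it in DESeq2 (adjusted p = 0.0449). DESeq2 called 0.914% of tested genes higher and 0.169% lower. Without the library labelled Wnt gain-of-function 5 it was 1.66 ± 0.382 (edgeR adjusted p = 0.0512).

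Dkk4 (ENSMUSG00000031535), the third Lrp-binding dickkopf, had 11 to 22 counts in 5 Wnt gain-of-function libraries, 5 in the library labelled Wnt gain-of-function 5, and 0 or 1 in each control library. Its level was 0.949 ± 0.335 CPM in Wnt gain-of-function and 0.0584 ± 0.0473 CPM in control libraries (SD, n = 6 each). Dkk4 was the 1 member whose groups did not overlap, as they did not in 0.364% of all genes with a count, and the library labelled Wnt gain-of-function 5, at 0.37 CPM, was here above the highest control, at 0.101 CPM. Its unfiltered edgeR log2 fold change was 3.97 ± 0.557 (adjusted p = 0.00035), and it passed in all 20 alternatives of that fit, in edgeR with the closest pairs summed (adjusted p = 0.00272) as in limma-voom (adjusted p = 0.00547). The unfiltered fit with the library sets as a block is among the 20 and is given no weight, as for Sostdc1 below. The controls held 4 reads of Dkk4 in all, so the size of the fold rests on very few counts. In the authors' deposited table Dkk4 had a log2 fold change of 3.45 and an adjusted p of 0.00983, the 1 member under 0.05 there, as were 0.13% of the 27743 genes of that table.

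Sostdc1 (ENSMUSG00000036169), also known as ectodin or Wise, had the widest fold of the members. Wnt gain-of-function libraries had 165 to 487 counts in 5 libraries and 8 in the library labelled Wnt gain-of-function 5, and control libraries had 0 to 2 counts apart from 10 in control 6. In CPM it was at 0.592, 17.7 and 30.9 in Wnt gain-of-function libraries (lowest, median and highest), against 0, 0.0901 and 0.619 in control libraries. Only the library labelled Wnt gain-of-function 5 and control 6 were at a like level, and the other 5 Wnt gain-of-function libraries were at least 21.9 times the highest control. Because 5 libraries and not 6 met the minimum, the usual filter removes this gene. Its unfiltered log2 fold change was 6.5 ± 0.971 (edgeR adjusted p = 0.0237), and without the library labelled Wnt gain-of-function 5 it was 6.75 ± 0.467 (unfiltered edgeR adjusted p = 7.59e-06). In unfiltered edgeR fits the call was lost when any of Wnt gain-of-function 1, 2, 4 or 6 or control 1 to 5 was left out (adjusted p = 0.0545 to 0.0822), with the closest pairs summed (adjusted p = 0.318), and in limma-voom (adjusted p = 0.619). The authors' deposited table gave Sostdc1 a log2 fold change of 6.31 with an adjusted p of 0.322, and Dkk2 3.1 with 0.0987.

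**Figure D2:**
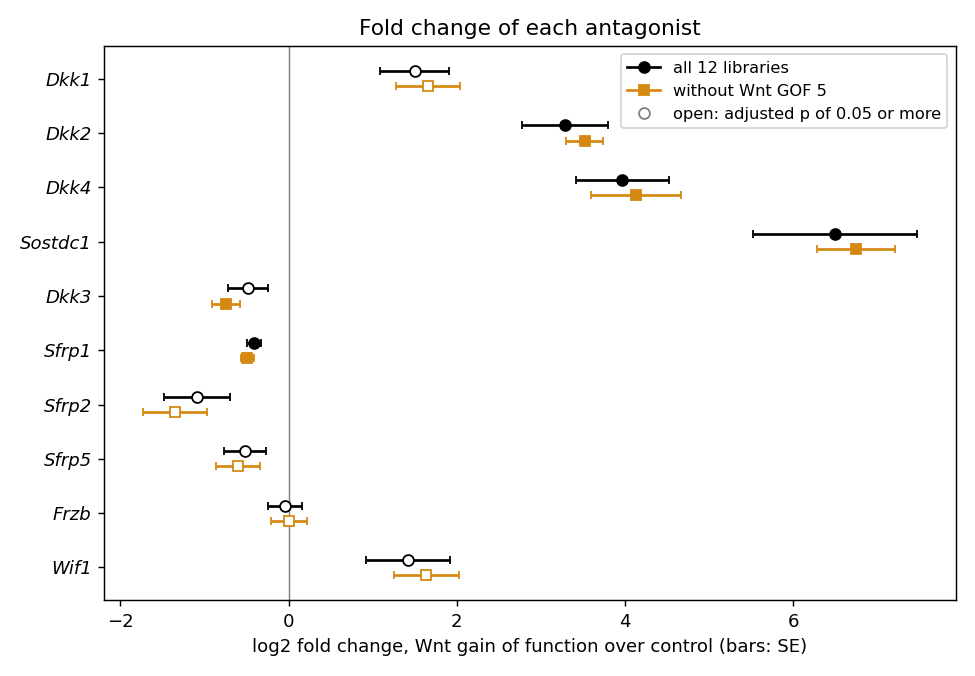
Log2 fold change of Wnt gain of function over control for each antagonist with its SE, from all 12 libraries (black circles) and without the library labelled Wnt gain-of-function 5 (orange squares); filled symbols passed an adjusted p of 0.05 in edgeR, and Dkk4 and Sostdc1 come from unfiltered fits. Dkk1, Dkk2, Dkk4, Sostdc1 and Wif1 lie above 0, and Dkk3, Sfrp1, Sfrp2 and Sfrp5 lie below it with either set of libraries, while Frzb is at -0.04 with all libraries and 0.01 without that library.

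Promoter sequence was at hand for 6 of the 10 members. The 250 bases before the transcription start of Dkk1 and Dkk2 are shown because both encode Lrp-binding dickkopfs with higher mean levels in the Wnt gain-of-function ventricles. They come from RefSeq (GRCm38.p6), lie at chr19:30549497-30549746 on the minus strand for Dkk1 and at chr3:132085042-132085291 on the plus strand for Dkk2, and read 5′ to 3′ along the gene. Capitals mark matches to the Tcf/Lef motif searched, which is CTTTGAA or CTTTGAT or CTTTGTA or CTTTGTT on either strand.
Dkk1: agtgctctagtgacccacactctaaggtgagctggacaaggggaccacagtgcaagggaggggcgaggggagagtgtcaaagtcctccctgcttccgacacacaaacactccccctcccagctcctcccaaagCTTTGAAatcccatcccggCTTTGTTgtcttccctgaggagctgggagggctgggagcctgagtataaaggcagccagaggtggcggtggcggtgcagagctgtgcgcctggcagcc
Dkk2: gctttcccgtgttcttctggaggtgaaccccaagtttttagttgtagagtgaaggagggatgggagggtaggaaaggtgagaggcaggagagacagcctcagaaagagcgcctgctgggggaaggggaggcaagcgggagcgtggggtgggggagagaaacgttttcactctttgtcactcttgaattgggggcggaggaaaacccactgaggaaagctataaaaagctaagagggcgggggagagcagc
The Dkk1 window holds 2 matches that do not overlap each other, CTTTGAA starting 117 bases and CTTTGTT starting 98 bases before the transcription start. The Dkk2 window holds none, and neither do the windows of Sfrp2, Sfrp5, Frzb and Wif1. Of 32851 windows of the same length, 14.8% hold at least 1 match and 1.4% hold 2 or more. These matches describe letters in a short window and say nothing of binding.

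Dkk3 (ENSMUSG00000030772), the divergent dickkopf, did not pass the test. It was one of the most abundant members, at 72, 78.5 and 187 CPM in the Wnt gain-of-function libraries and 110, 150 and 171 CPM in control libraries. The groups overlapped: Wnt gain-of-function 1 to 4 lay below every control, Wnt gain-of-function 6 was at 130 CPM, and the library labelled Wnt gain-of-function 5 was the highest of all 12. The log2 fold change of -0.48 ± 0.237 missed the threshold (edgeR adjusted p = 0.848). Without the library labelled Wnt gain-of-function 5 it was -0.74 ± 0.165 and Dkk3 was called lower (edgeR adjusted p = 0.0481), the 1 call among its 22 alternatives.

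Sfrp1 (ENSMUSG00000031548), a frizzled-related protein that binds Wnt proteins, had the highest mean CPM of the members in both groups. It was at 116, 132 and 168 CPM in the Wnt gain-of-function libraries and at 166, 176 and 194 CPM in control libraries. All Wnt gain-of-function libraries apart from the one labelled 5 lay below the lowest control. Means were 134 ± 18.5 CPM in Wnt gain-of-function and 179 ± 11.8 CPM in control libraries (SD, n = 6 each), and Sfrp1 fell by 0.41 on the log2 scale (SE 0.087; edgeR adjusted p = 0.045). This call was fragile. It was kept without the library labelled Wnt gain-of-function 5 (log2 fold change -0.49, edgeR adjusted p = 0.00172) but lost when any other single library was left out, Wnt gain-of-function or control (edgeR adjusted p = 0.056 to 0.127), and with the closest pairs summed (edgeR adjusted p = 0.493). Limma-voom also missed it (adjusted p = 0.0704). The log2 fold change itself stayed between -0.49 and -0.37 in all 22 alternatives.

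The other frizzled-related genes did not pass the test. Sfrp2 (ENSMUSG00000027996) was at 8.78, 19.2 and 36.1 CPM in the Wnt gain-of-function libraries and 19.2, 45 and 64.9 CPM in control libraries, with 3 Wnt gain-of-function libraries below the lowest control. Its log2 fold change was -1.09 ± 0.396 (edgeR adjusted p = 0.53), or -1.35 ± 0.381 without the library labelled Wnt gain-of-function 5 (edgeR adjusted p = 0.196). An exon of Gm26771 overlaps Sfrp2 in the GENCODE M21 annotation. Neither the annotation nor the strand setting behind the counts is given, so the effect of this overlap on the Sfrp2 counts is not known. Sfrp5 was scarce, at 0.621, 1.09 and 1.33 CPM in the Wnt gain-of-function libraries and 1.09, 1.44 and 2.01 CPM in control libraries, at a log2 fold change of -0.52, SE 0.248 (edgeR adjusted p = 0.806). Frzb, also called Sfrp3, was at 11.5, 14.2 and 16.4 CPM in the Wnt gain-of-function libraries, inside the 8.13 to 20.2 CPM of the control libraries. Its log2 fold change of -0.04 ± 0.204 changed sign between alternatives, with a range of -0.18 to 0.08.

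Wif1 (ENSMUSG00000020218), which binds Wnt proteins directly, was at 3.55, 19.6 and 25.2 CPM in the Wnt gain-of-function libraries and at 3.01, 4.25 and 14.7 CPM in control libraries. Within Wnt gain of function, 5 libraries lay above every control, and the library labelled Wnt gain-of-function 5 lay among the low controls. The control group was itself split, with 14.7 and 11.7 CPM in control 2 and 3 and 3.01 to 4.84 CPM in the other 4. The log2 fold change was 1.42 ± 0.504 (edgeR adjusted p = 0.508) and 1.64 ± 0.385 without the library labelled Wnt gain-of-function 5 (edgeR adjusted p = 0.0753).

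The split of the control libraries was not particular to Wif1. Libraries were clustered by their deviations from their group means and cut into 3 sets, a number that was chosen and not found. Removing the group means takes out the group difference, so that the sets mix the groups is not a finding. Set 1 held Wnt gain-of-function 1 and 2 with control 2 and 3. Set 2 held Wnt gain-of-function 3 and 4 with control 4 and 5. Set 3 held Wnt gain-of-function 5 and 6 with control 1 and 6. These sets were found in the same data and are not groups of the study. Set 3 was not a close set around the library labelled Wnt gain-of-function 5. With group means kept, this library's mean chi-square was 17.6 with control 4 and 18.6 with control 5, both of set 2. Within set 3 it was 31.5 (control 1), 55.5 (control 6) and 59.4 (Wnt gain-of-function 6). With Wnt gain-of-function 3 and 4, also of set 2, it was 47.3 and 50.7. Results over all 3 sets or with sets as a block carry this limit. Within set 1 Wif1 was at 25.2 and 24.8 CPM in Wnt gain of function, against 14.7 and 11.7 CPM in control, and within set 2 at 19.2 and 18 CPM, against 4.84 and 3.32 CPM. In set 3 it was at 3.55 and 19.9 CPM in Wnt gain of function, against 3.01 and 3.65 CPM in control. With 2 libraries against 2, groups often do not overlap: among all tested genes 27.8% were higher without overlap in set 1 and 23.3% in set 2, and 27.3% and 24% lower. In both of these sets 8.26% were higher without overlap and 7.67% lower, and in all 3 sets 1.52% were higher and 1.44% lower. Sfrp2 was lower in Wnt gain of function without overlap in each set, with log2 ratios of group means of -0.96, -1.23 and -1. Dkk3 was lower without overlap in sets 1 and 2 (-0.63 and -0.94), and so was Sfrp1 (-0.53 and -0.48), while both overlapped in set 3. Frzb went both ways, at 0.78 in set 1 and -0.28 and -0.39 in sets 2 and 3, a difference that was not tested. Dkk4 was higher without overlap in each set, and Dkk1, Dkk2 and Sostdc1 in sets 1 and 2. With the sets as a block, edgeR called Dkk2 (adjusted p = 0.0285) and Sfrp1 (adjusted p = 0.00217) among the 8 members, where 1.32% of all tested genes were called higher and 0.677% lower, and not Wif1 (adjusted p = 0.102) or Sfrp2 (adjusted p = 0.139). Because the sets came from these data, those p-values can be too small.

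**Figure D3:**
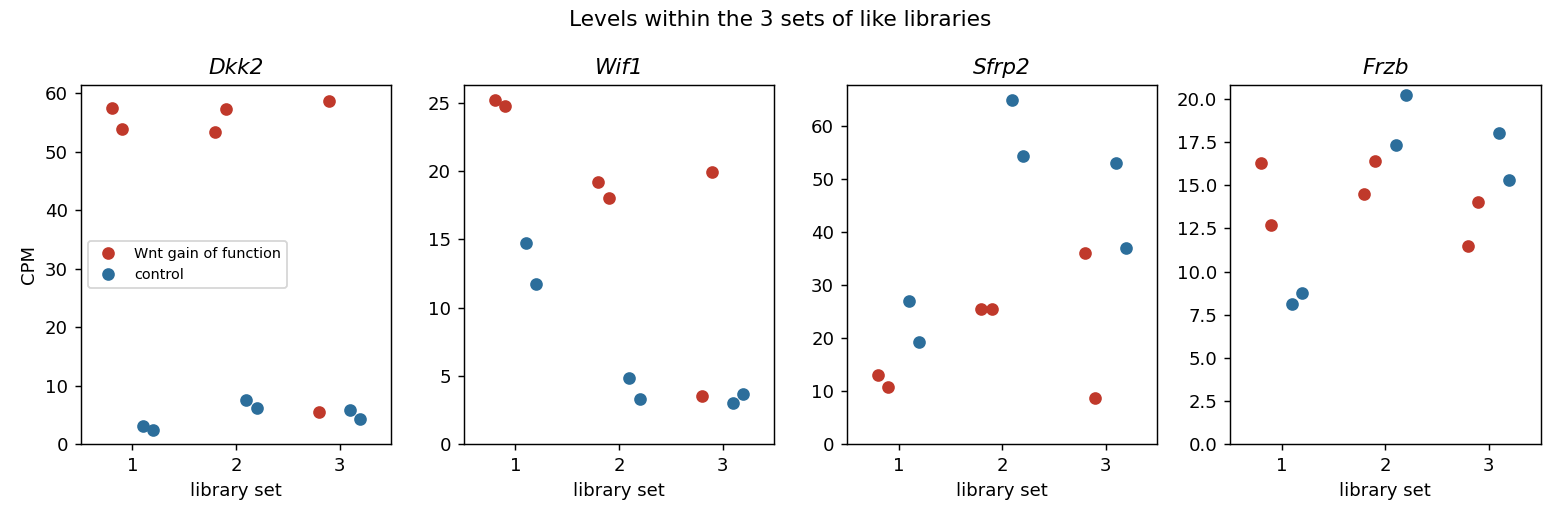
CPM of Dkk2, Wif1, Sfrp2 and Frzb in each library, by library set on the horizontal axis, with Wnt gain of function (red) left of control (blue) in each set. Sfrp2 is lower in Wnt gain of function in each of the 3 sets, Frzb is higher in set 1 and lower in sets 2 and 3, and the low Wnt gain-of-function point of Dkk2 and Wif1 in set 3 is the library labelled Wnt gain-of-function 5.

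Summed markers of several cell types also set control 2 and 3 apart from the other controls, lower in some lists and higher in others. The summed level of 7 epicardial markers was 245 to 327 CPM in Wnt gain-of-function and 232 to 348 CPM in control libraries, and control 2 and 3 were the 2 lowest controls, at 233.4 and 232.4 CPM. For 6 atrial markers the sums were 2580 to 3830 CPM in Wnt gain-of-function and 1860 to 3930 CPM in control libraries, again lowest in control 2 and 3 (1962 and 1864 CPM). These sums mainly follow Myl7 (means of 1910 CPM in Wnt gain of function and 2030 CPM in control) and Nppa (1170 and 815 CPM). The next gene, Nr2f2, was at 137 and 124 CPM. Of the 6 atrial genes 3 lay above 0 in log2 fold change, and what the sums say of atrial tissue was not tested. No marker of either list was at 0 throughout. EdgeR called 0 of 7 epicardial and 0 of 6 atrial genes, with 0 and 1 at an unadjusted p under 0.05. DESeq2 called no epicardial gene and 1 atrial gene, Nppa (edgeR log2 fold change 0.52), and limma-voom 0 of both. Nppa was also called higher without the library labelled Wnt gain-of-function 5 (0.59, edgeR adjusted p = 0.0132). With the library sets as a block it was called as well (0.53, edgeR adjusted p = 0.0123). The lowest p among these lists were of Tbx18 (-0.15) and Tcf21 (0.1) for epicardium and Nppa and Sln (-0.32) for atrium. Of 6 leukocyte markers, none at 0 throughout, the sums were 29.9 to 60.2 CPM in Wnt gain-of-function and 26.7 to 40.5 CPM in control libraries, lowest of the first group in the library labelled 5. Among them 4 had an unadjusted p under 0.05, led by Aif1 (log2 fold change 0.58) and Tyrobp (0.59), and 0 passed in edgeR, DESeq2 or limma-voom. Of 6 mural cell markers 1, Rgs5, was lower (log2 fold change -2.54, edgeR adjusted p = 0.0404) and Notch3 was at -0.28, and the sums were 191 to 276 CPM in Wnt gain-of-function and 215 to 408 CPM in control libraries. The mural sums were highest in control 2 and 3, at 378.9 and 408.4 CPM. The part of these cell types in the antagonist levels was not tested, and in bulk samples fewer cells of a type and less RNA per cell cannot be told apart. Cardiomyocyte markers were abundant in every library, with sums of 14000 to 17200 CPM in Wnt gain of function and 13900 to 19700 CPM in control, and 0 of 8 were called by edgeR, DESeq2 or limma-voom (1 at an unadjusted p under 0.05, Myh6 at 0.26, with Actn2 at -0.28 next). Their sums too were highest in control 2 and 3 (18780 and 19690 CPM). With the library sets as a block Actn2 was called lower (-0.29, edgeR adjusted p = 0.0464). Endocardial and endothelial sums were 724 to 787 CPM in Wnt gain of function and 665 to 736 CPM in control, and cushion sums 1420 to 1880 CPM in Wnt gain of function and 1480 to 2280 CPM in control. Outflow sums were 389 to 469 CPM in Wnt gain of function and 405 to 450 CPM in control, and Schwann and neural crest sums 258 to 469 CPM in Wnt gain of function and 337 to 486 CPM in control. Of these 4 lists and the erythroid one, 0 genes were called by edgeR, DESeq2 or limma-voom, and Npr3 (0.44) and Isl1 (-1.61) had an unadjusted p under 0.05. Isl1 was called lower without the library labelled Wnt gain-of-function 5 (log2 fold change -2.42, edgeR adjusted p = 0.028), and Npr3 higher once set was a term of the fit (0.42, edgeR adjusted p = 0.0257). Next in p were Tek (0.16), Fgf10 (0.8), Tbx20 (-0.12), Prrx1 (-0.13), Erbb3 (-0.26), Ednrb (-0.24), Hbb-bt (-0.38) and Hbb-bs (-0.37). Lung, foregut and liver markers were low, with sums of 1.11 to 21.7 CPM in Wnt gain-of-function and 0.496 to 8.89 CPM in control libraries, mostly Afp, and 0 of the 1 tested gene was called by any of the 3 tools or had an unadjusted p under 0.05.

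Levels can be set beside each other between genes only per length, here CPM per kilobase of exon in GENCODE M21. In Wnt gain-of-function ventricles Dkk3 and Sfrp1 led, at 30.9 ± 13.8 and 30.7 ± 4.23 CPM per kb (SD, n = 6). Dkk2 (12.9 ± 5.6), Sostdc1 (10.2 ± 6.16), Sfrp2 (9.25 ± 5) and Wif1 (7.61 ± 3.25) followed within each other's spread, then Frzb (4.39 ± 0.598). That spread is between libraries. Within each Wnt gain-of-function library Dkk2 lay above Wif1, by little in the one labelled 5 (1.48 against 1.46 CPM per kb). Sfrp1 lay above Dkk3 in all of these libraries but Wnt gain-of-function 5 and 6. Dkk1 (1.09 ± 0.534), Dkk4 (0.722 ± 0.255) and Sfrp5 (0.544 ± 0.158) were lowest and neighbours among them lay within their spread. In control ventricles the order was Dkk3 (43.2 ± 7.66) and Sfrp1 (40.9 ± 2.71), which did not differ beyond their spread, then Sfrp2 (19.8 ± 8.23), Frzb (4.52 ± 1.56), Wif1 (2.83 ± 2.07) and Dkk2 (1.33 ± 0.532 CPM per kb). Sfrp5 (0.782 ± 0.197) and Dkk1 (0.389 ± 0.238) came next, and Sostdc1 (0.0987 ± 0.127) and Dkk4 (0.0444 ± 0.036 CPM per kb) were close to absent.

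Summed over the 10 members, the level was 108 ± 7.41 CPM per kb in Wnt gain-of-function and 114 ± 16.6 CPM per kb in control libraries (SD, n = 6 each), with overlapping ranges of 100 to 119 in Wnt gain of function and 92.1 to 130 in control. The make-up of that sum is given as a description, with no test. The Lrp-binding members Dkk1, Dkk2, Dkk4 and Sostdc1 made up 23.5% ± 11.3 of it in Wnt gain-of-function libraries and 1.59% ± 0.399 in control libraries. They took 22.6% to 32.8% in the 5 Wnt gain-of-function libraries other than the one labelled 5, which was at 2.11%, and 0.879% to 1.88% in controls, so all 6 lay above every control. The 4 frizzled-related genes made up 41.4% ± 6.74 in Wnt gain-of-function and 57.8% ± 3.4 in control libraries, with 34.2% to 49.9% in Wnt gain of function and 53% to 62.6% in control. As levels they overlapped, at 35.8 to 59.6 CPM per kb in Wnt gain-of-function and 50.7 to 77.2 CPM per kb in control libraries, and a share also falls when other members of the sum are higher. Dkk3 made up 28% ± 10.3 in Wnt gain-of-function and 37.9% ± 3.55 in control libraries, and Wif1 7.17% ± 3.19 in Wnt gain-of-function and 2.75% ± 2.39 in control libraries. Both overlapped, Dkk3 with 21.2% to 46.7% in Wnt gain of function and 34.4% to 43.8% in control, and Wif1 with 1.23% to 10.2% in Wnt gain of function and 0.954% to 6.36% in control. RNA levels do not give protein levels outside the cell.

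**Figure D4:**
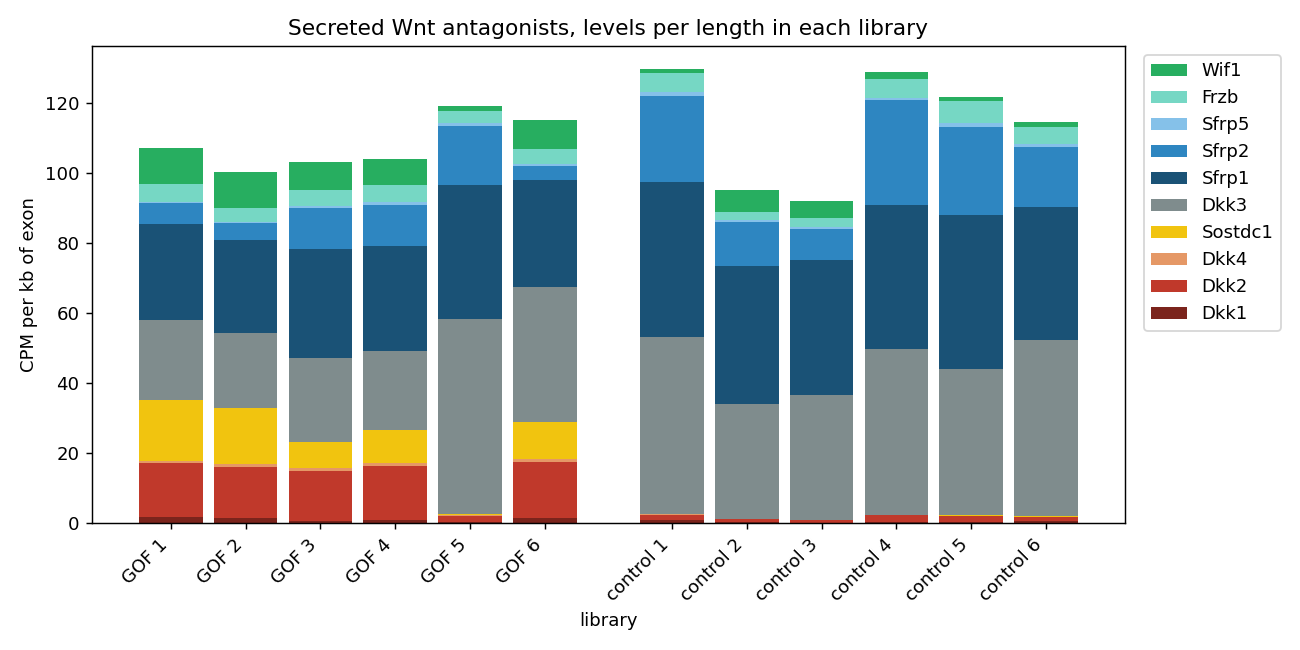
Stacked CPM per kb of exon of the 10 antagonists in each library, Wnt gain of function (GOF) on the left and control on the right, with the vertical axis starting at 0. The columns reach 100 to 119 in Wnt gain of function and 92.1 to 130 in control, while Dkk2 and Sostdc1 form visible layers in the Wnt gain-of-function libraries other than GOF 5.

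Single libraries can be set against the control range of each member. The library labelled Wnt gain-of-function 5 lay inside the control range for 8 of the 10 members, the exceptions being Dkk4, above it, and Dkk3, above it as well. The other Wnt gain-of-function libraries lay inside it for 1 to 4 members, and Frzb was one of them each time. The same share over all genes was not computed, so whether any of these counts is unusual cannot be told.

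The genes nearest in pattern to Dkk2 over the 12 libraries lay outside the family. By the root-mean-square difference of mean-centred log2 CPM, the nearest tested genes were Grin3a (0.297), a subunit of NMDA receptors, AI593442 (0.449) and Dpp6 (0.464), an auxiliary protein of Kv4 potassium channels. Grin3a was at 22.8 ± 10.2 CPM in Wnt gain-of-function and 2.98 ± 1.35 CPM in control libraries (edgeR log2 fold change 2.96, adjusted p = 0.0247), with 2.44 CPM in the library labelled Wnt gain-of-function 5. It was picked for likeness to Dkk2 over these libraries, group difference included. Its fold change, call and low value in that library follow from the choice and are no further result. Nearest to Sfrp1 were Ermp1 (0.113), a protease of the endoplasmic reticulum, Sulf2 (0.125), an extracellular sulfatase of heparan sulfate, and Erbb4 (0.127), a neuregulin receptor. Their log2 fold changes of -0.33, -0.33 and -0.26 did not pass the test (edgeR adjusted p = 0.396, 0.115 and 0.699). These genes too were picked for likeness, so a like fold change follows from the choice.

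The rest of the pathway gives the setting of these values. Of 11 further secreted or membrane inhibitors and modulators, 7 were tested, and Notum was the 1 call, higher (edgeR log2 fold change 4.84, adjusted p = 0.0095), while limma-voom called none of the 7. Tpbg, a membrane glycoprotein that inhibits Wnt signalling in zebrafish, was at 1.35 (edgeR adjusted p = 0.0714), and passed in DESeq2 and without the library labelled Wnt gain-of-function 5 (edgeR adjusted p = 0.00606). Apcdd1, a membrane-bound Wnt inhibitor, was at 1.28 (edgeR adjusted p = 0.186) and passed in the same 2 settings (adjusted p = 0.0156 in edgeR without that library). The median of the 7 was 1.17, against 0.00 over all tested genes. Of 10 beta-catenin target genes, 9 were tested and 2 rose, Axin2 (edgeR log2 fold change 2.62, adjusted p = 0.0145) and Rnf43, which removes frizzled receptors from the surface (2.14, adjusted p = 0.0095). Limma-voom called Rnf43 alone. Nkd1 was at 1.99 (edgeR adjusted p = 0.0573) and Tcf7 at 0.87 (edgeR adjusted p = 0.137). Both passed in DESeq2 and without the library labelled Wnt gain-of-function 5 (edgeR adjusted p = 0.000215 for Nkd1 and 0.00789 for Tcf7), and all 9 lay above 0 with a median of 0.87. The receptors that Wnt proteins or antagonists bind changed little: edgeR and limma-voom called 0 of 17 tested and DESeq2 1, Fzd10, with 2 below 0.05 before adjustment and a median of -0.01. Fzd10 was at 1.75 ± 0.647 CPM in Wnt gain-of-function and 0.604 ± 0.353 CPM in control libraries, and the edgeR log2 fold change of Ror1 was 0.25 (adjusted p = 0.525). Lrp6, the Wnt coreceptor that dickkopfs bind, was at 85.7 ± 9.65 CPM in Wnt gain-of-function and 93.2 ± 10.1 CPM in control libraries. Kremen1, a dickkopf receptor, was at 22.7 ± 5.25 CPM in Wnt gain-of-function and 21.7 ± 1.3 CPM in control libraries. Of 19 Wnt ligand genes 9 were tested, and edgeR, DESeq2 and limma-voom called 0, with 2 at an unadjusted p under 0.05, Wnt2 (0.72) and Wnt5a (-0.32). Of the 7 R-spondin and Lgr genes, which encode Wnt enhancers and their receptors, 6 were tested, and 0 were called by the 3 tools or had an unadjusted p under 0.05. All 6 lay below 0 with a median of -0.28, among them Rspo3 at -0.63 and Lgr4 at -0.17.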

How the data were processed

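Bulk RNA-seq tables of 12 mouse ventricle libraries were analysed. RNA was isolated with Trizol, per the labels' protocols, and the submitters' processing notes name Subread, featureCounts and edgeR. For the build, annotation, versions and strand setting, the sources used here give nothing. The deposited count table holds whole-number counts per gene, per the file headers. Its 41422 rows cover 40800 gene IDs, and 622 repeated rows with identical counts were left out. A second deposited table holds the authors' own comparison as log2 values and p-values, per the file headers, and served for the quoted values only.

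The members, 16 gene lists (138 entries) and alternatives were chosen with earlier results of these data known. Groups follow the genotype labels. Counts were tested in R 4.3.3 with edgeR 4.0.16 (filterByExpr with a minimum count of 10, TMM scaling, robust quasi-likelihood test, group as the only term, Benjamini-Hochberg adjustment). The SE was derived from the F statistic. Dkk4 and Sostdc1 were tested without the filter. Log2 CPM used a prior count of 2. The test was checked on simulated counts. Alternatives were limma-voom (limma 3.58.1), DESeq2 1.42.0, 3 scalings, 2 filters, a replicate block, library sets as a block, closest pairs summed, each library left out and a threshold of 0.01. Same-numbered libraries did not pair (correlations of -0.377 to 0.463). The text names all members, the genes called in each list and the 2 of lowest p (4 for beta-catenin targets), and the 3 genes most like each member called in the filtered fit (Dkk2 and Sfrp1). Apcdd1, Lrp6, Kremen1, Sp5 and Wnt6 were named after their values were seen.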

Additional observations from a re-analysis of the deposited data

Results flagged for a closer look

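The 9 members with a mean of at least 10 counts over all 12 libraries were taken in both groups, which gave 18 sets of 6 libraries. Of these, 3 held a library set far apart from the others by Dixon's ratio of gap to range, set against its 95% critical value. Chance flags about 1 in 20. Dkk2 had a ratio of 0.901 for its lowest Wnt gain-of-function library, the one labelled 5, at 5.48 CPM. Wif1 had a ratio of 0.668 for the same library, at 3.55 CPM. Sostdc1 had a ratio of 0.679 for its highest control library, control 6, at 0.619 CPM and 10 counts. That set is near the floor, with 15 counts over all control libraries.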

How the results depend on the processing

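The main fit called 1 antagonist higher and 1 lower, and 64 genes higher and 10 lower in all. DESeq2 gave 2, 1, 135 and 25, no count filter 3, 1, 97 and 12, and library sets as a block 1, 1, 195 and 100. Limma-voom gave 0 and 0 antagonists (7 at an unadjusted p under 0.05), with 15 genes higher and 7 lower. The closest pairs summed in edgeR gave 0 and 0 (5 unadjusted), with 0 genes higher and 1 lower (600 unadjusted). An adjusted p under 0.01 gave 0, 0, 8 and 2. With each library left out in turn, antagonists called higher numbered 0 to 3 and lower 0 to 2, and all genes 34 to 149 and 4 to 28. The highest of these member counts include Dkk4 and Sostdc1, which then entered the filter through their high Wnt gain-of-function libraries alone. The replicate block in edgeR gave 0 and 0 antagonists (6 unadjusted), with 47 genes higher and 8 lower, although the numbers did not pair the libraries. Scaling by DESeq2 size factors, library size alone or upper quartiles, and a filter of 1 CPM in 6 libraries, left the 2 member calls at Dkk2 and Sfrp1.

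Frzb turned from -0.04 to 0.05 in limma-voom and 0.02 with the replicate block and with the library sets, and among fits without 1 library lay between -0.15 and 0.08, above 0 without Wnt gain-of-function 5 and without control 1, 4 or 5. The cause was not tested. The other 9 members kept their direction in all alternatives that gave a value. In the unfiltered fit with the library sets as a block Sostdc1 had an adjusted p of 9.04e-193, which is too small to be credible for 12 libraries and was not used. Depth limits Dkk4 most, with 82 counts over the Wnt gain-of-function and 4 over the control libraries.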

Other observations

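Among genes too scarce for the filter and named after their values were seen, Sp5, a transcription factor induced by beta-catenin, was at 2.46 ± 1.07 CPM in Wnt gain-of-function and 0.115 ± 0.0916 CPM in control libraries (SD, n = 6 each; unfiltered edgeR log2 fold change 4.3, adjusted p = 5.39e-05). The library labelled Wnt gain-of-function 5 was at 0.518 CPM, above the highest control at 0.247 CPM. Wnt6, a ligand gene, had 58 counts over the Wnt gain-of-function and 9 over the control libraries, with 0 in the library labelled Wnt gain-of-function 5 (unfiltered edgeR log2 fold change 2.42, adjusted p = 0.0902).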
